A study of Mus musculus with 21 samples.

Results

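The genes described here are 10 immune receptor genes of the mouse, the Fc receptor genes Fcer1g, Fcgr1, Fcgr2b and Fcgr3, the Toll-like receptor (TLR) genes Tlr2, Tlr3 and Tlr7, the receptor partners Cd14 and Ly86, and the adaptor gene Myd88. They were found by symbol among the 64361 genes of a count table, and each symbol matched 1 row. The table holds 21 prime-seq libraries of bulk brain tissue. Prime-seq is an RNA-seq protocol that barcodes RNA early and reads the 3′ ends of polyadenylated transcripts, so a gene's level is compared here between libraries. The exceptions are sums and ratios of genes within a library, which are themselves compared between libraries. From cortex there were libraries of 5 control and 6 GA-Camk2a mice and from hippocampus of 4 control and 6 GA-Camk2a mice, taken from 11 mice sacrificed between 30 and 40 weeks of age. These numbers follow the labels, while the study's own text gives the control numbers of the tissues the other way round. GA-Camk2a mice carry a floxed-stop transgene for GFP fused to poly-GA, the glycine-alanine repeat protein made from the expanded repeat of C9orf72 ALS, and Camk2a-Cre switches it on in excitatory neurons. The line was kept on C57BL/6J, and its mice came from few litters. The labels call the controls only "ctrl". For stained sections the study names controls of this line Camk2a in one place and WT in another, and whether the sequenced controls carry Cre or the silent transgene is not stated in the sources used here. The comparison of the genotypes in the study asked what poly-GA does when it is made in neurons and not in oligodendrocytes.

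Fc receptors bind the constant part of antibodies. The activating receptors encoded by Fcgr1 and Fcgr3 need the common gamma chain encoded by Fcer1g, which carries an ITAM that recruits the kinase Syk, while the receptor encoded by Fcgr2b carries an inhibitory ITIM that recruits phosphatases. TLRs recognise microbial and endogenous ligands at the cell surface, as Tlr2 does for lipoproteins, or in endosomes, as Tlr3 and Tlr7 do for double-stranded and single-stranded RNA. Cd14 hands ligands to surface TLRs, Ly86 is the partner of the TLR-like protein Cd180, and Myd88 is the adaptor of the TLRs other than Tlr3, which signals through Ticam1. In brain most of these genes are known from microglia, the resident macrophages, and Tlr3 also from astrocytes and neurons.

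The promoters are shown first so that the sequence before each gene can be set beside its values, since most of the genes, though not all, were higher in the same libraries. The RefSeq table of the GRCm38.p6 build held 8 of the 10 genes, with 9 windows because Fcgr3 has 2 start sites. Cd14 and Tlr7 had no entry. The 250 bases before each start were searched on both strands for 3 sets of letters, GGG followed after any 3 bases by TTCC for NF-kappaB, GAGGAA for the core of PU.1 and GAAA followed after any 2 bases by GAAA for the interferon-stimulated response element (ISRE). No match overlapped another. NF-kappaB letters were found before Fcgr3, Tlr2 and Tlr3, and in 4.65% of all 32851 windows of that length. PU.1 letters were found before Fcgr1 and Fcgr3 and in 23.3% of all windows, and ISRE letters before Myd88 and in 2.98%. The windows of Fcer1g, Fcgr2b and Ly86 held none of the 3. A match in letters is a description of the sequence and no evidence of binding.

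The windows with a match are printed 5′ to 3′ on the gene's strand, with the matched letters in capitals. They lie at chr3:83841609-83841858 (Tlr2, minus strand), chr8:45410381-45410630 (Tlr3, minus strand), chr3:96293970-96294219 (Fcgr1, minus strand), chr1:171059404-171059653 (Fcgr3, minus strand) and chr9:119340019-119340268 (Myd88, minus strand).
Tlr2: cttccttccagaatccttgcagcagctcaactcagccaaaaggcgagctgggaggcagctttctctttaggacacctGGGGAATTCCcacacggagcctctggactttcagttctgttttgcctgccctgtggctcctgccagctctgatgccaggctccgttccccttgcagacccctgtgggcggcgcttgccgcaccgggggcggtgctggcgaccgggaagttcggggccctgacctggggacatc
Tlr3: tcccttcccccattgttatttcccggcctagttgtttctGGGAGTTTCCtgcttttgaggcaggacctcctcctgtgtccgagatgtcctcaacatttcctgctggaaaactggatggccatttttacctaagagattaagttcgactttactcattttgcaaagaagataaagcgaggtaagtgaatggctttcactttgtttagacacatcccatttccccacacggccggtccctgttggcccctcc
Fcgr1: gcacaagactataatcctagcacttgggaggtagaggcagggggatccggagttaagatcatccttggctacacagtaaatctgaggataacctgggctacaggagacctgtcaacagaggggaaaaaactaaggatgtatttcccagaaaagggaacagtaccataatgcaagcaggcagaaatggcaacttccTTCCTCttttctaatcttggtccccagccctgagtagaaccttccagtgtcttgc
Fcgr3: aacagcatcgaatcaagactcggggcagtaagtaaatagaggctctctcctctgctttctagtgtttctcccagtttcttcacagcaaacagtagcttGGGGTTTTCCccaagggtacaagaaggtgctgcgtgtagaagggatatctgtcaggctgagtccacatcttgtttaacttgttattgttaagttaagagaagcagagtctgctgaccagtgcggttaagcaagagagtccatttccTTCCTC
Myd88: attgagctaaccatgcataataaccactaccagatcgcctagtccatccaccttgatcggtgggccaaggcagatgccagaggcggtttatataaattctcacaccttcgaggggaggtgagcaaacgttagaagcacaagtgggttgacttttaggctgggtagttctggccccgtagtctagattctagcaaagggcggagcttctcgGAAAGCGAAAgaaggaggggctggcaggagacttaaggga
In the Tlr2 window the NF-kappaB letters stood 164 to 173 bases before the start site, in the Tlr3 window 202 to 211 bases and in the first Fcgr3 window 143 to 152 bases. The Myd88 match to the ISRE stood 31 to 40 bases before the start. PU.1 letters stood 50 to 55 bases before the Fcgr1 start and 1 to 6 bases before the Fcgr3 start.

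The libraries held between 1048201 and 5888102 counts (median 1975173), and the values below are CPM, counts scaled to a library total of 1000000. The targeted construct could not serve to check the labels, because the GFP row held 0 to 4 counts in every library and had counts in 5 of 6 cortex GA-Camk2a, 2 of 5 cortex control, 2 of 6 hippocampus GA-Camk2a and 0 of 4 hippocampus control libraries. In controls Spink8, a gene of hippocampal pyramidal neurons, followed the labels, at 66.8 to 105.4 CPM in hippocampus and 7.33 to 10.1 CPM in cortex. Spink8 is 1 of 7 region markers, and not all of them followed the labels. The hippocampus libraries of GA-Camk2a mice 16 and 30 and of control mouse 11 stood apart in the summed CPM of the 7 markers, at 5475, 4589 and 1721 against 280.9 to 367.5 in the other hippocampus libraries. Rorb, a cortex gene of this list, carried the sum and reached 5303 CPM in mouse 16. These sums were also above those of all cortex libraries, at 239 to 717 CPM, and the reason was not tested. The hippocampus library of GA-Camk2a mouse 41 had 883.3 CPM of neutrophil markers against at most 24.8 CPM in any other library. Results for hippocampus are therefore also given without these 4 libraries. Among the cortex libraries that of GA-Camk2a mouse 41 stood apart in the region markers, at 717 CPM against 239 to 404.9 CPM in the others. The labels assign each library to batch 1 or 2, every group was spread over both, and 5 of the 10 mice with a library from each tissue had them in different batches.

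In GA-Camk2a mice the level of 8 of the 10 genes was higher in cortex and of 8 in hippocampus, and none was lower. In cortex these were Fcer1g, Fcgr1, Fcgr2b, Fcgr3, Tlr2, Cd14, Ly86 and Myd88, in hippocampus the same without Myd88 and with Tlr3. The call was an adjusted p under 0.05 in edgeR's quasi-likelihood test with Benjamini-Hochberg adjustment over all genes tested, under which 6.35% of 13058 genes were higher and 6.16% lower in cortex (12.5% in all), and 4.97% of 14884 genes were higher and 5.95% lower in hippocampus (10.9% in all). These counts depend in part on the count filter, which asked for 5.06 CPM in 5 cortex libraries and 3.94 CPM in 4 hippocampus libraries. Tlr7 fell under it in both tissues. The control libraries alone met it for Fcer1g, Fcgr3 and Ly86 in cortex, all 3 called, and in hippocampus for these, Tlr3 and Myd88, of which 4 of 5 were called. The others needed the GA-Camk2a libraries to enter the test, so that their number is no support for the direction. With no filter, which admits a gene whatever its group, 9 of 10 were called higher in each tissue, without Tlr3 in cortex and Myd88 in hippocampus. There 1.37% of 54592 and 1.22% of 59346 genes were called higher, and most of these genes had too few counts for the filter. At a like effect and error this fit gave far smaller p-values, as for Fcgr1 in cortex (1.72 ± 0.31, adjusted p = 5.24e-06, against 1.75 ± 0.31, adjusted p = 0.000538, with the filter). P-values and shares of the 2 fits are therefore not comparable. With no filter the median log2 fold change of all 10 was 1.82 in cortex and 1.47 in hippocampus, beside -0.026 and 0.0364 over all genes. In bulk tissue, more cells of a type and more RNA per cell cannot be told apart.

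**Figure D1:**
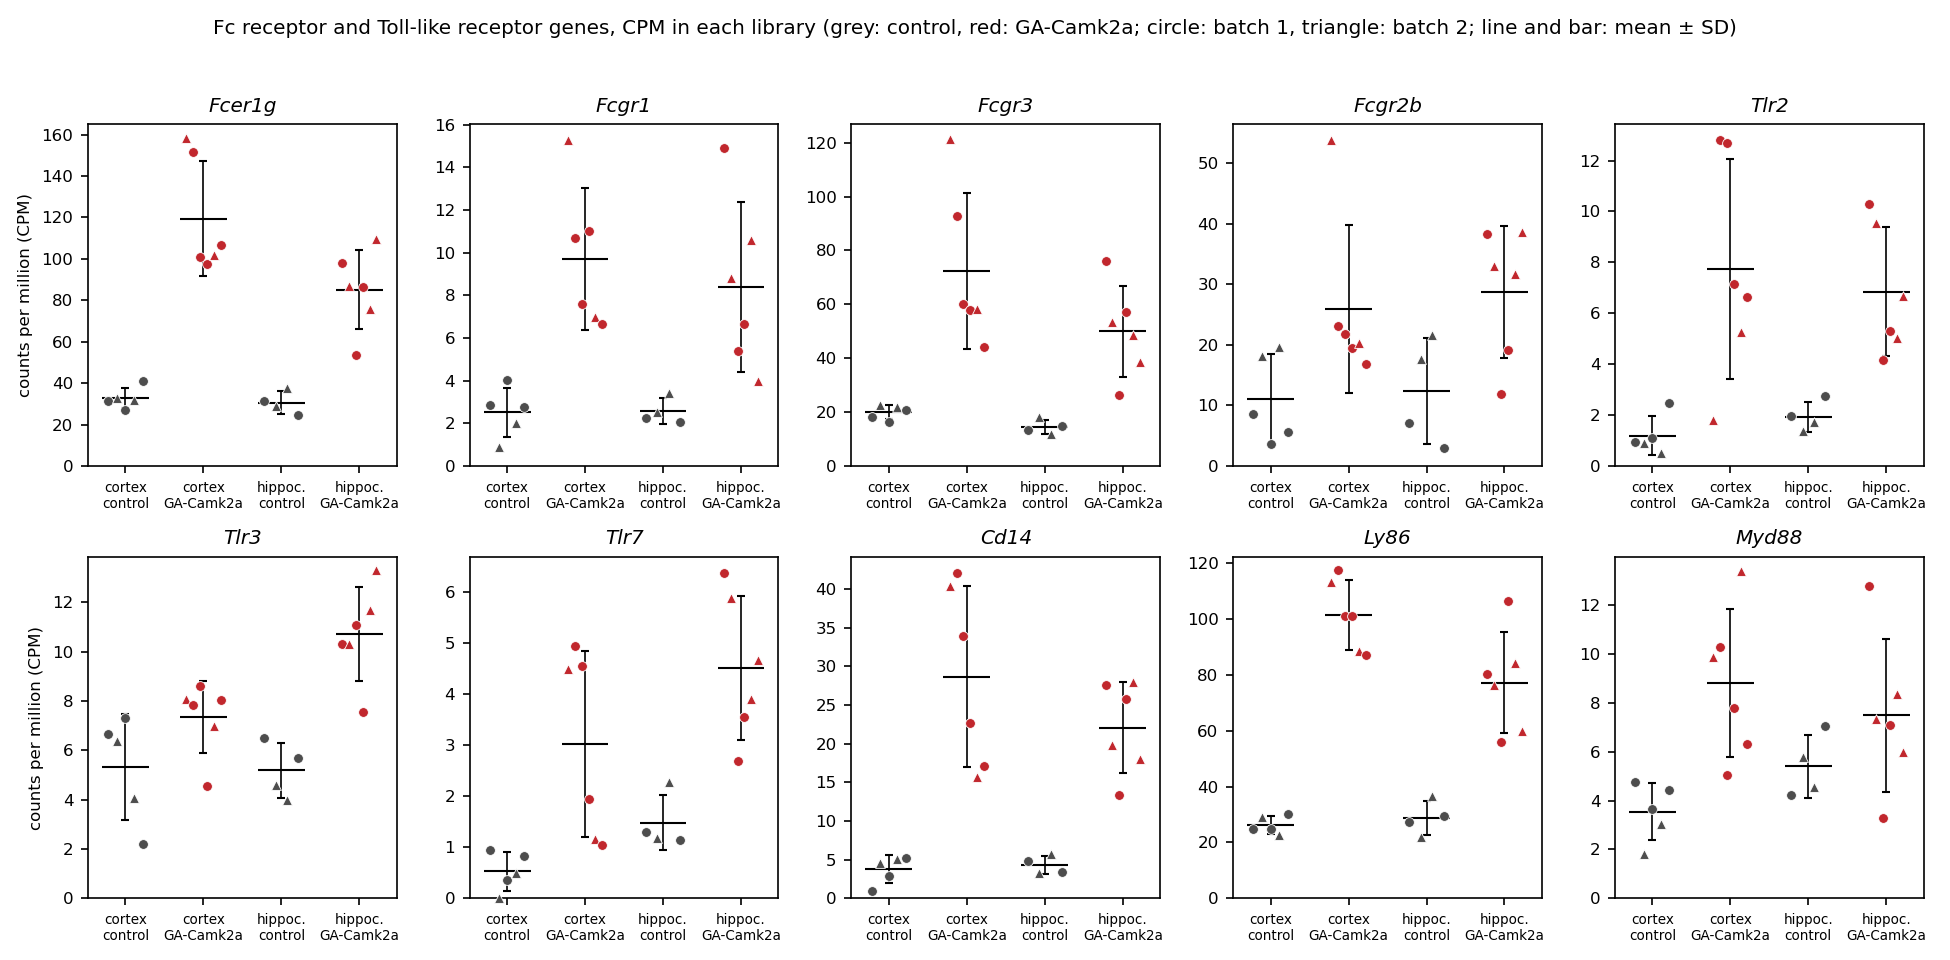
Level of each of the 10 genes in CPM (y axis) in the 4 groups of tissue and genotype (x axis), with 1 point for a library, circles for batch 1 and triangles for batch 2, and the mean ± SD as line and bar. Every GA-Camk2a library lies above every control library of its tissue except for Fcgr2b in both tissues, Tlr2 and Tlr3 in cortex and Myd88 in hippocampus, and for Tlr7 in cortex, where 1 control is at 0 counts, the points show no separation beyond counting error.

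The plot of CPM by library shows how far the groups lay apart. Of the genes that met the filter in controls alone, 3 of 3 in cortex and 4 of 5 in hippocampus had all GA-Camk2a libraries above all controls, a pattern seen in 3.5% and 5.6% of all genes tested. Fcgr1 and Cd14 in each tissue, Myd88 in cortex and Tlr2 in hippocampus were separated as well, but entered the test through the GA-Camk2a libraries and are not read against these shares.

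Fcer1g encodes the gamma chain that the activating Fc receptors share. In cortex it lay at 27.1, 31.5, 31.9, 32.7 and 41 CPM in controls and had a lowest, median and highest value of 97.4, 104.4 and 158.2 CPM in the 6 GA-Camk2a libraries. The groups did not overlap, and mice 16 and 23 were the highest. In hippocampus it lay at 24.6, 28.9, 31.5 and 37.6 CPM in controls and between 53.8 and 109.4 CPM, with a median of 86.6 CPM, in GA-Camk2a mice, again with no overlap. The log2 fold change was 1.85 ± 0.15 (SE, adjusted p = 3.07e-08) in cortex and 1.45 ± 0.16 (adjusted p = 5.35e-05) in hippocampus.

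Fcgr3, the low-affinity activating receptor for IgG, moved by a similar amount. It lay at 16.5, 18.1, 20.8, 21.8 and 22.7 CPM in cortex controls and at 44.1, 59.3 and 121.3 CPM for the lowest, median and highest GA-Camk2a library. In hippocampus the controls lay at 12, 13.3, 14.8 and 18.2 CPM and the GA-Camk2a libraries from 26.3 to 75.9 CPM with a median of 51.1 CPM. Neither tissue showed overlap, and mouse 16 was the highest in each. Fitted in the same way, its log2 fold change was 1.86 ± 0.20 (SE, adjusted p = 1.39e-06) in cortex and 1.68 ± 0.25 (adjusted p = 0.000541) in hippocampus. The hippocampus call was lost in the batch 1 libraries alone, where the value was 1.86 ± 0.40 (adjusted p = 0.0915).

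Fcgr1, the high-affinity receptor for IgG, had few counts, with 1 to 15 in a control library and 6 to 42 in a GA-Camk2a library. In cortex it lay at 0.908, 2.03, 2.77, 2.86 and 4.03 CPM in controls and from 6.65 to 15.3 CPM, with a median of 9.16 CPM, in GA-Camk2a mice. In hippocampus it lay at 2.05, 2.27, 2.55 and 3.42 CPM in controls and from 4.0 to 14.9 CPM, with a median of 7.73 CPM, in GA-Camk2a mice. The groups did not overlap in either tissue, although in hippocampus the lowest GA-Camk2a library came close to the highest control. No control library reached the CPM minimum of the filter, so Fcgr1 was tested only because of its level in GA-Camk2a mice. As fitted, its log2 fold change was 1.75 ± 0.31 (SE, adjusted p = 0.000538) in cortex and 1.73 ± 0.37 (adjusted p = 0.00698) in hippocampus, and with no filter 1.72 ± 0.31 (adjusted p = 5.24e-06) and 1.64 ± 0.31 (adjusted p = 1.17e-05). The hippocampus call was lost within batch 1 (2.01 ± 0.54, adjusted p = 0.166) and within batch 2 (1.42 ± 0.48, adjusted p = 0.116), fits of 5 libraries each, and in each batch every GA-Camk2a library was above the controls.

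Fcgr2b, the inhibitory receptor, rose as well, but its groups overlapped. In cortex the controls lay at 3.66, 5.54, 8.59, 18.2 and 19.7 CPM and the GA-Camk2a libraries at 16.8, 21.1 and 53.9 CPM for the lowest, median and highest. In hippocampus the controls lay at 2.96, 7.14, 17.7 and 21.7 CPM and the GA-Camk2a libraries between 11.9 and 38.7 CPM with a median of 32.4 CPM. In each tissue 4 of 6 GA-Camk2a libraries were above every control. With batch as a term, the log2 fold change was 1.45 ± 0.26 (SE, adjusted p = 0.000589) in cortex and 1.36 ± 0.33 (adjusted p = 0.0155) in hippocampus. In hippocampus the call was lost in the batch 1 libraries alone (2.21, adjusted p = 0.137), without the batch term (1.21, adjusted p = 0.104), without control 11 (adjusted p = 0.0504) and without control 37 (adjusted p = 0.0565).

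The control levels of Fcgr2b divided by batch. In cortex the 3 control libraries of batch 1 lay at 3.66 to 8.59 CPM and the 2 of batch 2 at 18.2 and 19.7 CPM. In hippocampus the 2 controls of batch 1 lay at 2.96 and 7.14 CPM and the 2 of batch 2 at 17.7 and 21.7 CPM. Single mice followed the batch of the library, with mouse 31 at 3.66 CPM in cortex (batch 1) and 21.7 CPM in hippocampus (batch 2), and mouse 37 at 19.7 CPM in cortex (batch 2) and 2.96 CPM in hippocampus (batch 1). The batch term was 1.22 ± 0.25 on the log2 scale in cortex (adjusted p = 0.00519, where 2.56% of genes were called) and 1.03 ± 0.32 in hippocampus (adjusted p = 0.197, where 1.6% were called). Within each batch the groups did not overlap, and the ratio of the mean GA-Camk2a level to the mean control level was 3.42 in batch 1 and 1.96 in batch 2 in cortex, and 4.57 and 1.76 in hippocampus. In the cortex batch 2 libraries alone the log2 fold change was 0.86 and the call was lost (adjusted p = 0.306). Of the 1467 words of 50 bases in the last 500 bases of Fcgr2b transcripts, 33 (2.25%) also occur in Fcgr3, and their part in the batch difference was not tested.

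**Figure D2:**
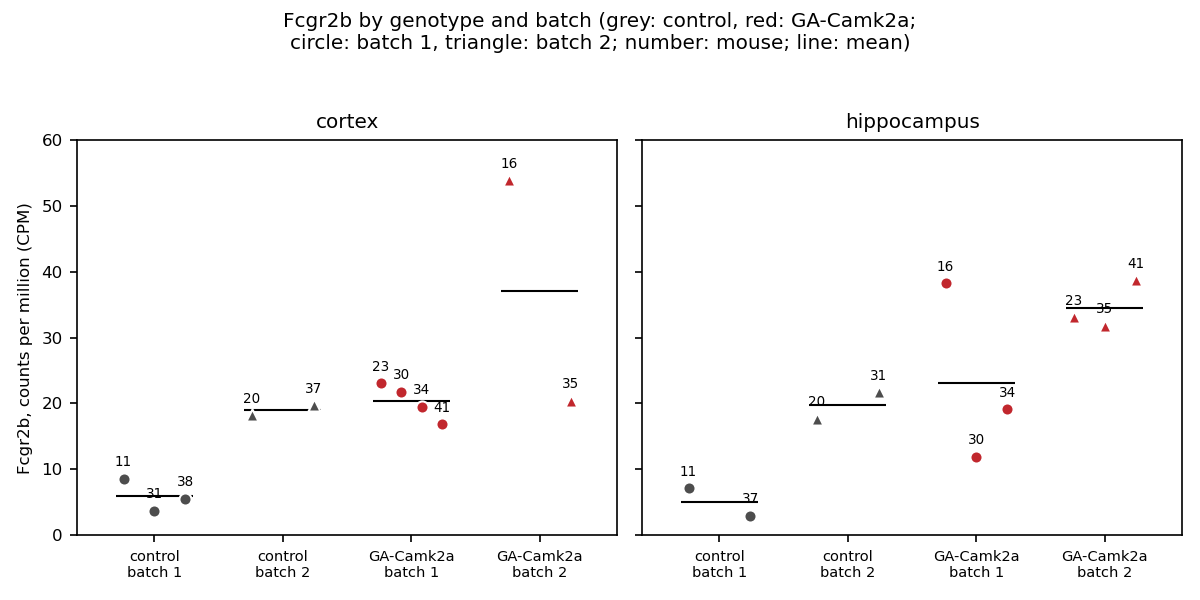
Fcgr2b in CPM (y axis) by genotype and batch (x axis) in cortex and hippocampus, with 1 point for a library, the mouse number beside it and the mean as a line. Controls of batch 1 lie at or below 8.59 CPM and controls of batch 2 at or above 17.7 CPM, and within a batch every GA-Camk2a library lies above the controls.

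The plot of Fcgr2b by batch gives these values mouse by mouse. The controls of the 2 batches did not overlap for 5 of the 10 genes in cortex (Fcgr1, Fcgr2b, Fcgr3, Tlr2 and Myd88) and for 4 in hippocampus (Fcgr1, Fcgr2b, Tlr2 and Tlr3), where 27.9% and 32.5% of all genes tested had no such overlap, and nothing is read from these counts. Batch 2 was higher for Fcgr2b and lower for Tlr2 in each tissue, and for Fcgr1 it was lower in cortex and higher in hippocampus. The mean of the batch 2 controls was 3.2 times that of batch 1 in cortex and 3.89 times in hippocampus for Fcgr2b, and 0.467 and 0.655 times for Tlr2. No other of the 9 genes tested had a batch term past the threshold in either tissue, and the next in cortex by unadjusted p was Tlr2, lower in batch 2 by a log2 value of -1.27 ± 0.42 (adjusted p = 0.15).

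Cd14, the co-receptor that delivers lipopolysaccharide and other ligands to surface TLRs, had the highest fold change of the 9 genes in both tissues. In cortex it lay at 0.954, 2.93, 4.54, 5.06 and 5.26 CPM in controls and from 15.7 to 42.1 CPM, with a median of 28.3 CPM, in GA-Camk2a mice. In hippocampus it lay at 3.23, 3.42, 4.87 and 5.70 CPM in controls and from 13.4 to 27.9 CPM, with a median of 22.8 CPM, in GA-Camk2a mice. The lowest GA-Camk2a library was well above the highest control in each tissue. Its fitted log2 fold change was 2.79 ± 0.32 (SE, adjusted p = 2.97e-06) in cortex and 2.41 ± 0.27 (adjusted p = 4.86e-05) in hippocampus, and no alternative fit lost either call.

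Ly86, the partner of Cd180, had the smallest standard error in cortex. It lay at 22.8, 24.8, 24.9, 29.1 and 30.2 CPM in cortex controls and from 87.1 to 117.6 CPM, with a median of 101.3 CPM, in GA-Camk2a cortex. In hippocampus it lay at 21.9, 27.3, 29.6 and 36.5 CPM in controls and from 56.1 to 106.4 CPM, with a median of 78.4 CPM, in GA-Camk2a mice. No library of one group reached the other in either tissue. Ly86 had a log2 fold change of 1.94 ± 0.12 (SE, adjusted p = 1.08e-09) in cortex and 1.42 ± 0.18 (adjusted p = 0.000131) in hippocampus.

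Tlr2, the surface receptor for lipoproteins, was rare in controls, with 1 to 12 counts in a library. In cortex the controls lay at 0.506, 0.908, 0.954, 1.10 and 2.49 CPM and the GA-Camk2a libraries at 1.80, 6.90 and 12.8 CPM for the lowest, median and highest. The groups overlapped through mouse 16, which had 2 counts of Tlr2 in cortex and was the highest of the 6 in hippocampus. In hippocampus the controls lay at 1.36, 1.71, 1.95 and 2.74 CPM and the GA-Camk2a libraries from 4.18 to 10.3 CPM with a median of 6 CPM, with no overlap. As for Fcgr1, no control library reached the CPM minimum of the filter, and in cortex Tlr2 was no longer tested when GA-Camk2a mouse 23, 30, 34, 35 or 41 was left out. Where it was tested, the log2 fold change was 2.48 ± 0.37 (SE, adjusted p = 8.22e-05) in cortex and 1.72 ± 0.35 (adjusted p = 0.00448) in hippocampus, where the call was lost in the batch 1 libraries alone (adjusted p = 0.299). With no filter it was 2.44 ± 0.38 (adjusted p = 2.39e-08) in cortex and 1.64 ± 0.34 (adjusted p = 0.00013) in hippocampus.

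Tlr3, the endosomal receptor for double-stranded RNA, passed the threshold in hippocampus alone. Its controls lay at 3.99, 4.59, 5.70 and 6.5 CPM there and its GA-Camk2a libraries from 7.54 to 13.3 CPM with a median of 10.7 CPM, without overlap. In cortex the controls lay at 2.22, 4.05, 6.36, 6.68 and 7.33 CPM and the GA-Camk2a libraries from 4.55 to 8.61 CPM with a median of 7.94 CPM, and 3 of 5 controls reached the lowest GA-Camk2a library. The log2 fold change was 0.97 ± 0.21 (SE, adjusted p = 0.00859) in hippocampus and 0.62 ± 0.29 (adjusted p = 0.181) in cortex. The difference between the tissues was 0.35 ± 0.37 (adjusted p = 0.832), so the effects are not shown to differ. The hippocampus call was lost in the batch 1 libraries alone (0.65, adjusted p = 0.433), without control 20 (adjusted p = 0.0511) and without the 4 hippocampus libraries that stood apart (0.92 ± 0.31, adjusted p = 0.114).

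Tlr7, the endosomal receptor for single-stranded RNA, was described by its counts because it was under the filter. Cortex controls held 0 to 3 counts in a library, or 0, 0.366, 0.506, 0.831 and 0.954 CPM, and GA-Camk2a cortex 2 to 12 counts, or 1.05 to 4.95 CPM. Hippocampus controls held 4 to 7 counts, or 1.14, 1.19, 1.30 and 2.28 CPM, and GA-Camk2a hippocampus 7 to 18 counts, or 2.69 to 6.38 CPM. As listed the groups did not overlap in either tissue. In the cortex control library at 0, however, the depth allows a level of up to 2.72 CPM (3 counts), and 3 of the 6 GA-Camk2a libraries, at 1.05, 1.17 and 1.95 CPM, lie below that level, so no separation is shown for cortex. Fitted with no filter on low counts, the log2 fold change was 2.23 ± 0.58 (SE, adjusted p = 0.00657) in cortex and 1.57 ± 0.40 (adjusted p = 0.00513) in hippocampus. Tlr7 is on the X chromosome, and the Y-linked Ddx3y lay at 3.3 to 5.39 CPM in the libraries of mice 16, 31 and 35 and at 16.2 to 46.3 CPM in the others, so that both genotypes held mice of each kind.

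Myd88, the adaptor of most TLRs, passed the threshold in cortex alone. Cortex controls lay at 1.82, 3.04, 3.66, 4.43 and 4.77 CPM and GA-Camk2a libraries from 5.06 to 13.4 CPM with a median of 8.84 CPM, without overlap. Hippocampus controls lay at 4.22, 4.56, 5.77 and 7.07 CPM and GA-Camk2a libraries from 3.29 to 12.8 CPM with a median of 7.22 CPM, and all 4 controls reached the lowest of them. The log2 fold change was 1.23 ± 0.29 (SE, adjusted p = 0.00672) in cortex and 0.37 ± 0.32 (adjusted p = 0.531) in hippocampus, and their difference was -0.86 ± 0.46 (adjusted p = 0.56). The cortex call was lost in the batch 1 libraries alone (0.83, adjusted p = 0.158). Exons of Acaa1a overlap Myd88 on the opposite strand in GENCODE M21, and since use of strand in counting is not given in the sources used here, some counts may belong to that gene. Exons on the opposite strand also overlap Fcgr2b (Gm38204) and Tlr3 (Gm45542), and the same limit holds for their counts.

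**Figure D3:**
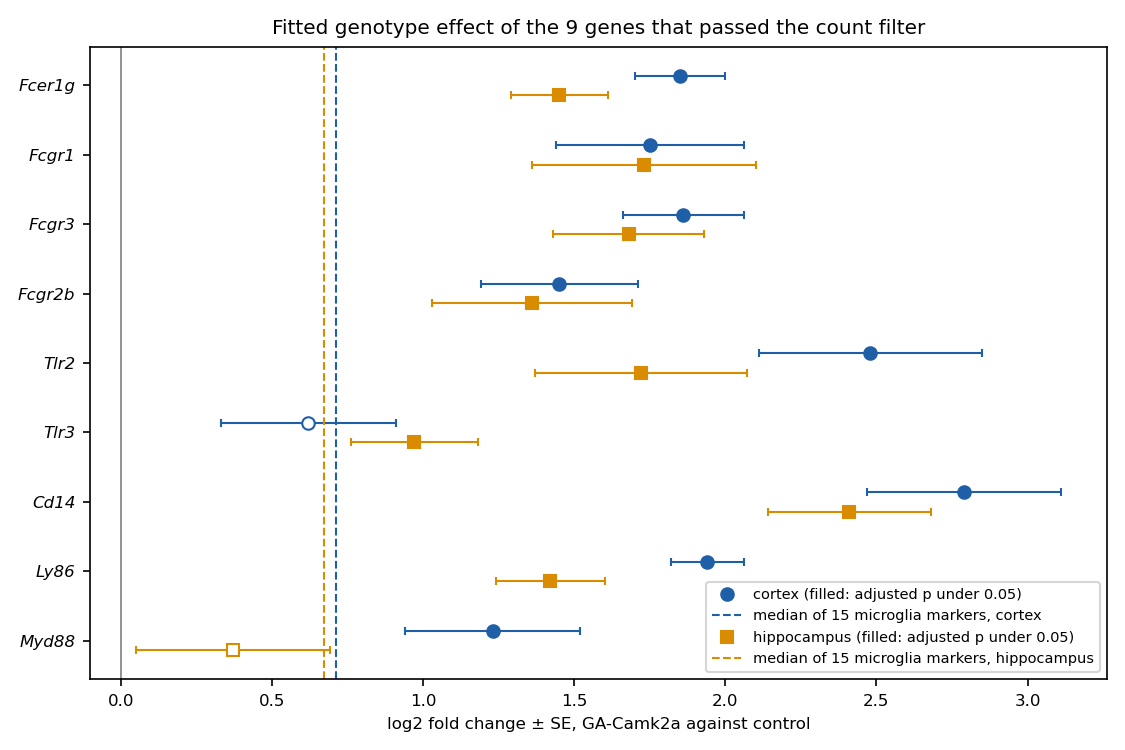
Log2 fold change ± SE of GA-Camk2a against control (x axis) for the 9 genes that passed the count filter (y axis), in cortex (circles) and hippocampus (squares), filled where the adjusted p is under 0.05, with the median of 15 microglia markers as dashed lines. Values run from 0.62 to 2.79 in cortex and from 0.37 to 2.41 in hippocampus, and Tlr3 in cortex and Myd88 in hippocampus are the only points below the dashed line of their tissue.

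The plot of fold changes by gene shows that 8 of 9 genes had the larger value in cortex, some by little, as with Fcgr1 at 1.75 against 1.73. The share of all genes with the larger value in cortex was not taken, and nothing is read from this count. A test of the difference of the genotype effect between the tissues used all 21 libraries, with no term for the mouse. It called none of the 9 genes, where 0.414% of 14751 genes were called. Its lowest unadjusted p among them was 0.0247 for Ly86, whose effect was smaller in hippocampus by -0.53 ± 0.22 on the log2 scale (adjusted p = 0.4), and this was the only one of the 9 under 0.05 without adjustment. No alternative fit, DESeq2 and limma-voom included, called any of them. The values were -0.41 ± 0.24 for Fcer1g, -0.79 ± 0.59 for Tlr2 and -0.40 ± 0.49 for Cd14, and -0.05 ± 0.55, -0.06 ± 0.46 and -0.15 ± 0.37 for Fcgr1, Fcgr2b and Fcgr3, which changed sign under some alternatives.

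Compared directly within GA-Camk2a mice, hippocampus had less Fcer1g than cortex by a log2 value of -0.62 ± 0.15 (SE, adjusted p = 0.00474) and less Ly86 by -0.47 ± 0.13 (adjusted p = 0.0119), and the other 7 genes tested did not pass, where 33.3% of 13098 genes were called and 16.3% were lower in hippocampus. Fcgr3 was at -0.60 ± 0.24 (adjusted p = 0.0628), and with the mouse as a replicate block it passed (adjusted p = 0.00311). Without the hippocampus libraries that stood apart Fcer1g stayed past the threshold (adjusted p = 0.013) and Ly86 did not (-0.23 ± 0.13, adjusted p = 0.232). In controls 0 of the 7 genes tested differed between the tissues, where 16.5% of 14435 genes were called. Fcgr3 came closest in edgeR's test (-0.47 ± 0.17, adjusted p = 0.0666). Fcgr3 alone had an unadjusted p under 0.05 there, DESeq2 called 0, and limma-voom called Fcgr3 (adjusted p = 0.0319).

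Within the GA-Camk2a group mice were ordered in part alike over the 10 genes. In cortex, mouse 16 was the highest for Fcer1g, Fcgr1, Fcgr2b and Fcgr3 and mouse 23 for Tlr2, Tlr7, Cd14 and Ly86, while mouse 41, whose cortex library had the high sum of region markers, was the lowest for 5 genes. Without that library the cortex fit called 6 of 7 genes tested, where 1387 of 12591 genes were called, and Tlr2 and Myd88 fell under the filter. Fcgr1, Fcgr2b and Cd14 are among the 6 and met the main filter only with the GA-Camk2a libraries. In hippocampus, mouse 16 was the highest for Fcgr1, Fcgr3, Tlr2, Tlr7 and Myd88, and mouse 30 was the lowest for 8 genes. Mice 16, 30 and 41 are those whose hippocampus libraries stood apart in Rorb or neutrophil markers, and the part of either in the order was not tested. Without libraries 11, 16, 30 and 41 the hippocampus fit called 7 of the 9 genes tested, with log2 fold changes of 2.67 ± 0.27 for Cd14, 1.70 ± 0.17 for Fcgr3 and 1.62 ± 0.17 for Ly86. Fcgr1, Fcgr2b, Tlr2 and Cd14 are among the 7 and met the main filter only with the GA-Camk2a libraries. Among all genes tested, the number called was 1625 of 14884 with these libraries and 713 of 13589 without them.

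Markers of the cells that express these receptors moved in the same samples. The summed CPM of 15 microglia markers was 479.6 to 536.9 in cortex controls and 1118 to 1678 in GA-Camk2a cortex, and 423.1 to 518.3 against 776.5 to 1263 in hippocampus, with no marker at 0 throughout a group. Of the 15 markers, 10 were higher in cortex and 8 in hippocampus and none was lower, beside 6.35% and 4.97% of all genes tested that were higher, with median log2 fold changes of 0.71 and 0.67. In cortex the complement genes C1qa, C1qb and C1qc had log2 fold changes of 1.99, 1.73 and 1.72, beside 1.5, 1.48 and 1.58 for hippocampus, all past the threshold. P2ry12, a receptor typical of resting microglia, was at 0.07 ± 0.13 (adjusted p = 0.801) and -0.16 ± 0.15 (adjusted p = 0.57), and Tmem119 at -0.14 ± 0.23 and 0.48 ± 0.25, and neither passed. Summed border macrophage and monocyte markers were 14.3 to 30.0 CPM in cortex controls and 34.3 to 44.0 CPM in GA-Camk2a cortex, and 21.1 to 23.7 against 27.5 to 150.8 CPM in hippocampus, with the highest value in mouse 41. Summed B and T cell markers were 5.94 to 7.41 CPM in hippocampus controls and 7.25 to 31.4 CPM in GA-Camk2a hippocampus, again with mouse 41 highest, and 6.96 to 15.4 against 7.09 to 13.4 CPM in cortex. Summed markers of astrocytes, 1 of the other cell types known for Tlr3, were 2485 to 3325 CPM in cortex controls and 3607 to 5091 CPM in GA-Camk2a cortex, and 2936 to 3429 against 4476 to 6063 CPM in hippocampus, and 5 of 8 were higher in cortex and 6 of 8 in hippocampus. Summed excitatory neuron markers were 1853 to 2347 against 1195 to 1646 CPM in cortex and 2051 to 2593 against 1084 to 1466 CPM in hippocampus. Of these 6 markers 4 were lower in cortex and 5 in hippocampus, beside 6.16% and 5.95% of all genes tested that were lower. No marker of either list was at 0 throughout a group. The part of these cell types in the receptor levels was not tested.

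To set the receptor levels against microglia markers in the same library, each gene's CPM was divided by the summed CPM of those markers. What this ratio shows depends on the markers summed, since C1qa, C1qb and C1qc made up 59.2% to 63.4% of the sum in cortex controls and 76.5% to 81.2% in GA-Camk2a cortex, and 54.4% to 60.8% against 70.2% to 77.5% in hippocampus. The values are given first with all 15 markers. Cd14 rose from a control median of 0.947% to 2.08% in cortex and from 0.851% to 1.97% in hippocampus, and all 6 GA-Camk2a libraries were above every control in each tissue. Ly86 rose from 5.09% to 7.61% in cortex without overlap, whereas in hippocampus 5.18% to 7.73% in controls overlapped with 5.10% to 9% in GA-Camk2a mice. A ratio above every control in all GA-Camk2a libraries was found for 0.184% of genes tested in cortex and 0.235% in hippocampus. Cd14 entered the test through its level in GA-Camk2a mice and is not read against these shares, while Ly86 met the filter in controls alone. Fcer1g, Fcgr1, Fcgr3, Tlr2 and Tlr7 had higher medians in GA-Camk2a mice in each tissue but overlapped, as with Fcgr3 at 3.37% to 4.73% against 3.90% to 7.23% in cortex. Fcgr2b overlapped fully, with no GA-Camk2a library above every control in either tissue. Tlr3 fell in median from 1.32% to 0.562% in cortex and Myd88 from 1.17% to 0.628% in hippocampus, with overlap, and a fall of the ratio without overlap was found for 83.7% of genes tested in cortex and 72.9% in hippocampus. With the 3 complement genes left out of the sum, a choice made after seeing the data, all 6 GA-Camk2a libraries were above every control in both tissues for Fcer1g, Fcgr3 and Ly86, the 3 genes that met the filter in controls alone in each tissue and had this pattern, beside 0.697% of genes tested in cortex and 0.927% in hippocampus. Cd14 in both tissues, Fcgr1 in cortex and Tlr2 in hippocampus had it as well, but entered the test through the GA-Camk2a libraries and are not read against these shares. Relative to these 12 markers Fcer1g had medians of 17.5% in controls and 42.7% in GA-Camk2a mice in cortex, and 14.7% and 29.1% in hippocampus. Fcgr2b, Tlr3, Tlr7 and Myd88 overlapped in both tissues under either sum.

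**Figure D4:**
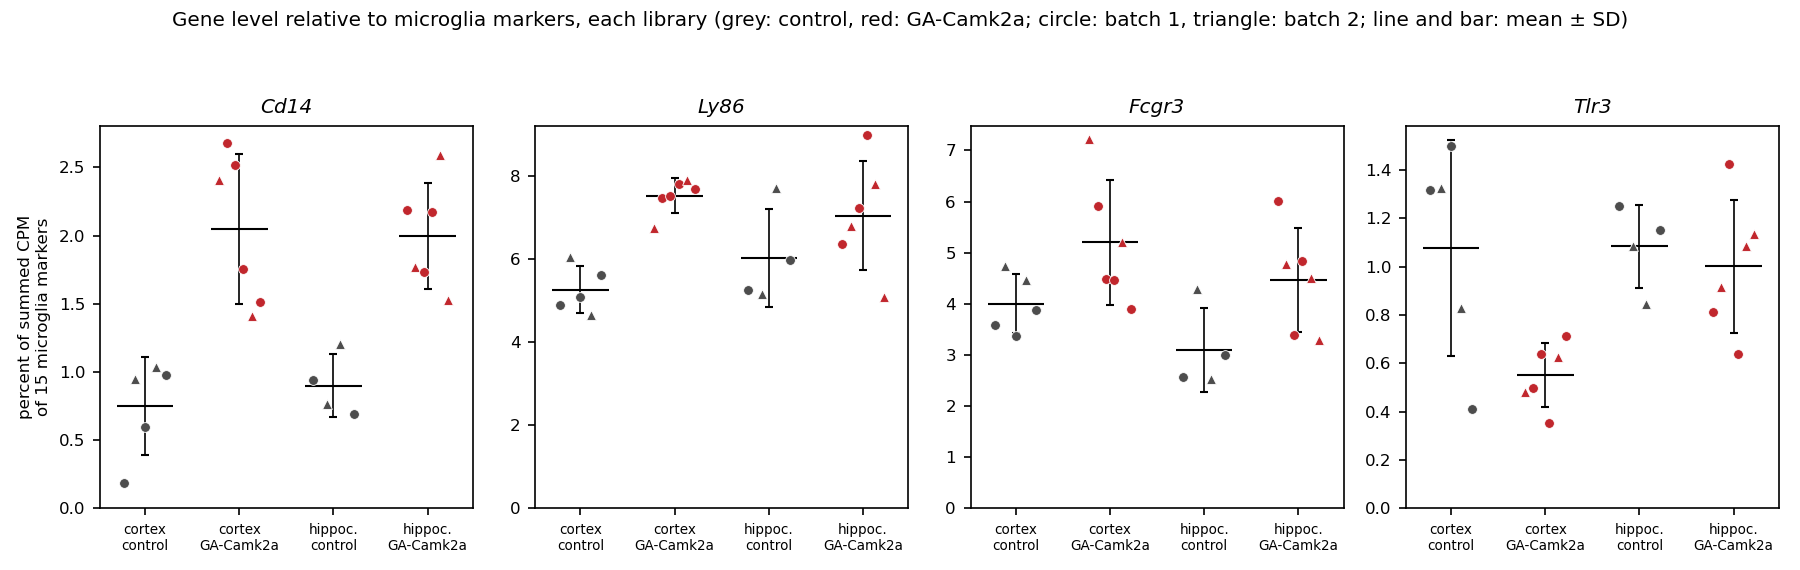
CPM of Cd14, Ly86, Fcgr3 and Tlr3 as a percentage of the summed CPM of 15 microglia markers, C1qa, C1qb and C1qc included, in the same library (y axis) in the 4 groups (x axis), with 1 point for a library and the mean ± SD. Cd14 lies above 1.4% in every GA-Camk2a library and at or below 1.21% in every control, and Tlr3 in cortex lies mostly lower in GA-Camk2a mice.

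The plot of levels relative to microglia markers sets Cd14, which separated in both tissues, beside Fcgr3 and Tlr3, which did not with all 15 markers in the sum. The genes whose level over the 21 libraries was most like the mean of the 9 tested genes, by Pearson's r of log2(CPM + 1) among 11783 genes, were the cathepsin gene Ctss (r = 0.983), C1qb (0.979), Apoe (0.976), Trem2 (0.975), Ctsh (0.972) and C1qc (0.969). These correlations share the libraries, the depth and the group difference, and describe likeness of pattern only.

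The remaining TLR and Fc receptor genes were mostly too rare to test. All 9 further TLR genes were under the filter in both tissues. Tlr1, a partner of Tlr2, had 0 or 1 count in cortex controls and 1 to 6 counts in every cortex GA-Camk2a library, and 0 to 4 against 1 to 7 counts in hippocampus. Tlr4, the receptor served by Cd14, had 0 to 3 counts in cortex controls and 0 to 4 in GA-Camk2a cortex, and 0 to 6 against 1 to 10 counts in hippocampus, which does not allow a statement on its direction. Fcgr4, an activating IgG receptor, had 0 or 1 count in cortex controls and 1 to 5 in GA-Camk2a cortex, and 0 to 2 against 0 to 10 counts in hippocampus. Fcgrt, the neonatal Fc receptor that recycles IgG, was higher by 0.48 ± 0.15 (adjusted p = 0.0427) in cortex and 0.61 ± 0.13 (adjusted p = 0.00859) in hippocampus. Fcrls, an Fc receptor-like gene of microglia, was higher in cortex by 0.99 ± 0.21 (adjusted p = 0.0023) and at 0.10 ± 0.21 (adjusted p = 0.829) in hippocampus, and the difference was not past the threshold (-0.86, adjusted p = 0.31).

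Of the co-receptors and chaperones of TLRs, 1 of 4 tested was higher and 1 lower in cortex, and 2 of 5 were higher in hippocampus, where 6.35% of all genes tested were higher and 6.16% lower in cortex and 4.97% higher in hippocampus. So few genes give no result about the list. Unc93b1, which carries endosomal TLRs out of the endoplasmic reticulum, was higher by 1.01 ± 0.22 (adjusted p = 0.00387) in cortex and 1.31 ± 0.14 (adjusted p = 3.79e-05) in hippocampus. Cd180, the partner of Ly86, was higher in hippocampus by 1.66 ± 0.34 (adjusted p = 0.00464), and in cortex, where it was under the filter, it lay at 0.506 to 2.86 CPM in controls and 2.91 to 8.99 CPM in GA-Camk2a mice. Hsp90b1, a chaperone of TLRs and other secreted proteins, was lower in cortex by -0.28 ± 0.09 (adjusted p = 0.0346).

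Of the adaptors and signalling genes downstream of TLRs, 2 of 15 tested were higher in cortex and none lower, and in hippocampus 2 of 18 were higher and 1 was lower, with medians of 0.08 and 0.26. Among all genes tested 12.5% were called in either direction in cortex and 10.9% in hippocampus, so counts this small are not a result about the list. The same 2 genes were higher in both tissues, Irf7, the transcription factor of type I interferon induction (2.48 ± 0.41, adjusted p = 0.000244, and 2.37 ± 0.42, adjusted p = 0.00196), and Irf8, a factor of the microglial lineage (1.68 ± 0.21, adjusted p = 9.96e-06, and 1.49 ± 0.17, adjusted p = 5.35e-05). The kinases, TRAF and IKK genes tested and Rela and Nfkb1 did not pass in either tissue, as with Rela at 0.31 ± 0.18 and 0.31 ± 0.13. The genes Irak3 and Irak4 were under the filter in both tissues and Irak2 in cortex. Of genes that act behind ITAM and ITIM, 3 of 9 tested were higher in cortex and 3 of 12 in hippocampus, and none was lower. Among all genes tested 6.35% were higher in cortex and 4.97% in hippocampus, and so few genes give no result about the list. Ptpn6, the phosphatase SHP-1 that ITIMs recruit, was higher in both (1.78 ± 0.33, adjusted p = 0.000954, and 1.77 ± 0.24, adjusted p = 0.00027). Syk, the kinase that ITAMs recruit, was under the filter.

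Of 16 target and feedback genes of NF-kappaB, 5 were tested in cortex and 6 in hippocampus. Nfkbia, which encodes the inhibitor IkappaB-alpha, was higher by 0.71 ± 0.14 (adjusted p = 0.00167) and 0.73 ± 0.14 (adjusted p = 0.0029). It was the only one that was higher, and Ptgs2, which is also an activity gene of neurons, was lower in hippocampus by -1.21 ± 0.25 (adjusted p = 0.00495). Tnf, Il1a, Il1b and Il6 were under the filter in both tissues, with at most 8 counts in a library. The medians of the list were 0.03 in cortex and -0.08 in hippocampus. With 12.5% of all genes tested called in cortex and 10.9% in hippocampus, these few calls are not a result about the list.

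**Figure D5:**
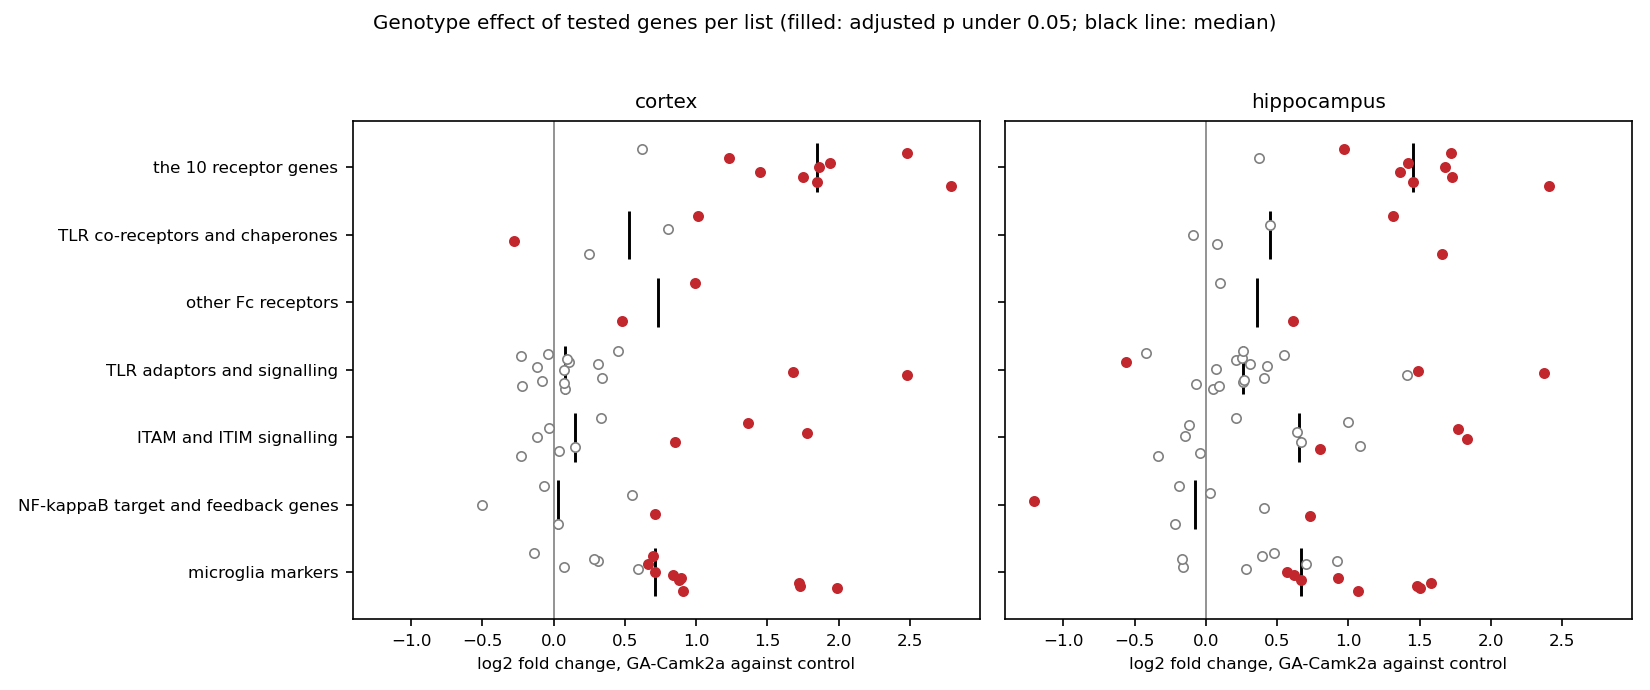
Log2 fold change of GA-Camk2a against control (x axis) for each tested gene of 7 lists (y axis) in cortex and hippocampus, filled where the adjusted p is under 0.05, with the median of a list as a black line. The 9 receptor genes tested have medians of 1.85 and 1.45, the TLR signalling genes 0.08 and 0.26 and the NF-kappaB genes 0.03 and -0.08.

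The plot of the lists places the receptor genes tested beside the genes that act with them. The lists differ in how many of their genes were abundant enough to be tested, and no test compared them.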

How the data were processed

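Bulk RNA of cortex and hippocampus was sequenced with prime-seq. After demultiplexing, the authors used zUMIs and the mm39 genome build, extended by a GFP sequence, to obtain counts per gene, and the deposited values are whole-number counts, not normalized. The submitters' processing notes also name STAR, FastQC 0.11.8, cutadapt 1.12 and DESeq2 1.44. Whether reads or unique molecular identifiers were counted, and whether strand or introns were used, is not given in the sources used here. Symbols came from the GENCODE M21 annotation of GRCm38, so no gene coordinates are given, and promoter windows are those of RefSeq for GRCm38.p6. The GFP row entered neither the library totals nor any test.

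Genotypes were compared per tissue in edgeR 4.0.16 under R 4.3.3, with TMM normalization, genes filtered by filterByExpr (minimum count 10), batch as a term and the quasi-likelihood F-test. P-values were adjusted with Benjamini-Hochberg over all genes tested, and adjusted p-values in the text are edgeR's except where DESeq2 or limma-voom is given. The study's methods name DESeq2 with no covariate. The difference between tissues was an interaction contrast over the 21 libraries. In its main fit, and in that of the direct comparisons of the tissues, both libraries of a mouse were treated as independent. Alternatives were other normalizations (RLE, upper quartile), no filter, DESeq2 1.42.0, limma-voom (limma 3.58.1), no batch term, thinning to the smallest library, each batch alone, the mouse as a replicate block and leaving out each library. The self-test on simulated counts was run before the fits.

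Libraries of a group came from different mice, and the 46 pairs within groups differed with a chi-square of 2.1 to 15.1 per degree of freedom. Libraries with the same number come from the same mouse. The correlation of their deviations from the group means over 10454 genes was 0.20 to 0.38 in the 5 mice with both libraries in 1 batch and -0.28 to -0.11 in the 5 mice with libraries in different batches. Total counts differed between libraries, so low genes are less precise in shallow libraries, and a library at 0 counts is given a floor of 3 counts, which covers counting error only.

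The 10 genes, the other lists and the rule for naming genes were chosen with earlier results of these data known. The rule named the 10 genes, and from each other pathway list up to 4 higher and 4 lower genes past the threshold in both tissues, or up to 2 in 1 tissue where none passed in both, besides rare receptors with their counts, cell type markers beside a result and the 6 genes most alike. Genes outside it (Syk, Rela, Tnf, Il1a, Il1b, Il6, Cd180, Hsp90b1, Fcrls and Ptgs2) were named after their values were seen. No endothelial marker of 6 passed in either tissue.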

Additional observations from a re-analysis of the deposited data

Results flagged for a closer look

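Of 56 groups of 4 to 6 libraries in which the highest or the lowest value was set against the range of the group, 5 had a library far from the others, and chance gives such a value in about 5% of groups. Fcgr2b was at 53.9 CPM in the cortex of GA-Camk2a mouse 16, where the next highest of the 6 libraries was 23.1 CPM, and without that library the cortex call remained (highest adjusted p over all fits without 1 library 0.00563). Tlr7 was at 2.28 CPM in the hippocampus of control mouse 31, from 7 or fewer counts, with the other 3 controls between 1.14 and 1.30 CPM. The remaining values are of 1 library, the hippocampus of GA-Camk2a mouse 41. It had 883.3 CPM of summed neutrophil markers, 150.8 CPM of border macrophage and monocyte markers and 31.4 CPM of B and T cell markers. The highest CPM of Fcer1g, Fcgr2b and Tlr3 in GA-Camk2a hippocampus was in this library. Without it, the hippocampus fit called the same 8 genes and also Tlr7, which then passed the filter (log2 fold change 1.67, adjusted p = 0.0135), where 1360 of 15212 genes were called. No control library reached the CPM minimum of the main filter for Tlr7, so it was tested there only because of its level in GA-Camk2a mice.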

How the results depend on the processing

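Fcer1g, Cd14 and Ly86 kept their genotype calls in both tissues, and Fcgr3 and Fcgr1 in cortex, in every alternative that tested them, and no genotype effect changed sign. Thinning to the smallest library left 5 of the 10 genes testable in cortex, all called, where 1048 of 10538 genes were called. It put Fcgr1, Tlr2, Tlr3, Tlr7 and Myd88 under the filter there. In hippocampus it left 6, all called, where 896 of 11372 genes were called. Fcgr2b and Cd14 are among these in each tissue and met the main filter only with the GA-Camk2a libraries, so these counts are no support for the direction. Tlr2 fell under the cortex filter without GA-Camk2a mouse 23, 30, 34, 35 or 41, and Myd88 without 23 or 41. Within hippocampus batch 1, the calls of Fcgr1, Fcgr2b (2.21, adjusted p = 0.137), Fcgr3 (adjusted p = 0.0915), Tlr2 and Tlr3 were lost and 3 remained. Tlr7 was tested in 8 of 10 hippocampus fits that left out 1 library and called in 7. It entered them through the GA-Camk2a libraries, so this count is no support for its direction.

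In cortex 1634 of 13058 genes tested were called, 1048 of 10538 with thinned counts, 879 of 14045 in batch 1 and 230 of 11808 in batch 2. Without 1 library 1040 to 1526 were called (1040 of 13023 without control 31). Of the receptor genes tested 8 of 9 were called in cortex, 5 of 5 with thinned counts, 5 of 6 in batch 2 and 6 of 7 to 8 of 9 without 1 library. In hippocampus 1625 of 14884 genes were called, 896 of 11372 with thinned counts, 115 of 15966 in batch 1 and 681 of 13737 in batch 2. Without libraries 11, 16, 30 and 41 (chosen after seeing the data) 713 of 13589 were called. Without 1 library 1038 to 1830 were called (1038 of 15909 without control 31 and 1082 of 14928 without control 20). Of the receptor genes tested 8 of 9 were called in hippocampus, 3 of 10 in batch 1 and 7 of 10 to 9 of 10 without 1 library. Genes that met the filter only with the GA-Camk2a libraries are counted among them. The test of the difference between tissues called 61 genes, 159 with no filter, 127 with DESeq2, 33 without the batch term, 30 with thinned counts, 10 without those 4 libraries and 22 to 66 without 1 library (22 without hippocampus control 31), and 0 receptor genes throughout. Between the tissues 2385 genes differed in controls (1350 thinned, 1580 to 3170 without 1 library) and 4359 in GA-Camk2a mice (2867 thinned, 2687 without those 4 libraries). Of the receptor genes, 0 differed in controls (1 with limma-voom, 0 to 1 without 1 library, which was Fcgr3 without cortex control 31, adjusted p = 0.0297), and 2 in GA-Camk2a mice (1 thinned, with Ly86 at adjusted p = 0.0506, 1 without those 4 libraries, and 2 to 4 without 1 library, with 4 without hippocampus mouse 16).

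The difference between tissues changed sign for Fcgr2b with thinned counts (0.06) and with the mouse as a replicate block (0.12), for Fcgr3 with thinned counts (0.11), and without 1 library it ranged from -0.37 to 0.12 for Fcgr1 and from -0.42 to 0.15 for Fcgr2b. The replicate block changed 1 call, that of Fcgr3 between tissues in GA-Camk2a mice (-0.63, adjusted p = 0.00311). Causes of these changes were not tested, other than the smaller number of libraries or counts in a fit. Relative to the summed microglia markers, 2 receptor genes in cortex and 1 in hippocampus lay above every control, and 5 in each with C1qa, C1qb and C1qc left out of the sum (chosen after seeing the data), of which Cd14 in both tissues, Fcgr1 in cortex and Tlr2 in hippocampus passed the count filter only with the GA-Camk2a libraries.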
